A study of Homo sapiens with 24 samples.

Results

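Lysosome and autophagy genes were examined after knockdown of FAM167A (also called DIORA1) in SK-N-SH and in SK-N-AS, 2 human neuroblastoma cell lines. The set held 44 named genes, matched by Ensembl identifier across the 3 deposited count tables, which together list 80527 genes. It covered 8 proteases, 10 glycosidases, lipases and activators, 5 lysosomal membrane proteins, 5 genes of the proton pump, 3 transcription factors, 10 genes of autophagosome formation and 3 autophagy receptors. All 44 were listed in every table, and 44, 43 and 44 of them had enough reads to be tested in the SK-N-SH siRNA, SK-N-SH CRISPRi and SK-N-AS CRISPRi experiments. CTSZ, a cathepsin, was the member left out of the SK-N-SH CRISPRi test.

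RNA was sequenced from 24 libraries in 6 groups. In the SK-N-SH siRNA experiment, 5 libraries from cells given a pool of small interfering RNAs against DIORA1 were compared with 5 from cells given a non-targeting (NTC) siRNA. In the CRISPRi experiments, which block transcription at a guided site, cells carrying SpCas9-KRAB received the guide sgDIORA1 or the control guide sgGal4, with 3 against 3 libraries in SK-N-SH and 4 against 4 in SK-N-AS. The labels do not give the time after knockdown, the number of guides, whether a CRISPRi line was 1 clone or whether replicates were separate cultures, so p-values measure the spread between these libraries, which may be technical. Each experiment had its own controls.

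Lysosomes are acidic organelles in which hydrolases break down proteins, glycans, lipids and nucleic acids delivered by endocytosis and by autophagy. In autophagy a double membrane closes around cytoplasmic cargo, which receptor proteins tether to lipid-linked LC3 and GABARAP proteins, and the closed vesicle then fuses with a lysosome. Many genes of both systems are transcriptional targets of the related factors TFEB, TFE3 and MITF, which are held in the cytoplasm by mTORC1 kinase activity when nutrients are plentiful.

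Values are in CPM, a gene's share of the reads assigned to genes after TMM scaling, calculated here from the deposited raw counts, and fold changes are log2 of knockdown over control with a standard error. Assigned reads per library ran from 71464698 to 90255175 in the siRNA experiment, 11690515 to 21628076 in SK-N-SH CRISPRi and 29985858 to 104455853 in SK-N-AS CRISPRi. FAM167A itself had 63.4, 71.4, 57.7, 67.7 and 65.9 CPM in the knockdown libraries, against 187, 193, 168, 201 and 191 CPM in the control libraries in the siRNA experiment (log2 fold change -1.53 ± 0.055). It had 3.79, 3.24 and 2.62 CPM after knockdown, against 229.9, 255 and 242 CPM in controls in SK-N-SH CRISPRi (-6.23 ± 0.077), and 10.9, 10.3, 9.17 and 10.3 CPM after knockdown, against 98.7, 90.8, 93.8 and 97.2 CPM in controls in SK-N-AS CRISPRi (-3.22 ± 0.047). The knockdown was therefore seen in every library carrying that label, and its depth differed between experiments. The siRNA knockdown libraries 3 and 4 and control library 5 had lower cytosolic ribosomal protein gene expression than the rest of their groups, by log2 differences of -0.32, -0.35 and -0.21.

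After siRNA knockdown in SK-N-SH, lysosome and autophagy genes were lower: 21 of 44 fell and 0 rose at an adjusted p under 0.05 (edgeR's quasi-likelihood test with Benjamini-Hochberg adjustment over all genes tested, used throughout). Over all genes tested in that experiment, 9.53% were called, 6.98% of them as falls and 2.55% as rises, each as a share of all genes. Beside the 0 rises, 1 member was higher at an unadjusted p under 0.05 (ATP6V1A), and DESeq2's Wald test also gave 21 falls and 0 rises. The members' median log2 fold change was -0.17, against 0.0085 over all genes, and 37 of the 44 values were negative. In 18 of the 44 tested members (40.9%), all of them called, no knockdown library reached the lowest control. Over all genes tested that was so for 6.08%, with 2.65% apart in the other direction and 8.74% in either. With knockdown libraries 3 and 4 and control library 5 left out, 21 members fell and 0 rose. Total-count scaling, added after the data were seen, gave 18 falls and 1 rise (ATP6V1A) among the members, and 1068 falls and 1315 rises among all genes against 1468 falls and 536 rises with TMM scaling.

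In SK-N-SH CRISPRi cells the same genes were higher: 32 of the 43 tested members rose and 1, GLA, fell, where 55.8% of all genes were called, 27.7% up and 28.0% down. The median log2 fold change was 0.34 for the members and -0.0068 for all genes. The groups did not overlap for 33 of the 43 tested members (76.7%), called or not, and for 60.7% of all genes tested. Every knockdown library was above all controls for 32 of the 43 (74.4%) and for 30.2% of all genes. DESeq2's Wald test called 26 rises and 0 falls, without ATP6V1H, ATP6V0D1, ATP6V0C, CTSL, CTSS, ULK1 and GLA. Scaling to total counts with no TMM factor moved the median of all genes to -0.14 and that of the members to 0.21. On that scale 24 members rose and 3 fell, while all genes split into 2791 up and 6397 down, against 4269 up and 4313 down with TMM scaling.

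In SK-N-AS CRISPRi cells 28 of 44 members rose and 2, GUSB and TFEB, fell. Of all genes in that experiment 30.6% were called, 15.2% up and 15.5% down. The members' median log2 fold change was 0.16 and that of all genes was -0.0024. The groups did not overlap for 28 of the 44 tested members (63.6%), called or not, and for 29.1% of all genes tested. Every knockdown library was above all controls for 27 of the 44 (61.4%) and for 14.4% of all genes. Total-count scaling gave 27 rises and 2 falls. With no filter on low counts 24 members were called, without PSAP, GAA, GLB1, WIPI1, ATP6AP1 and ATP6V0D1.

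**Figure D1:**
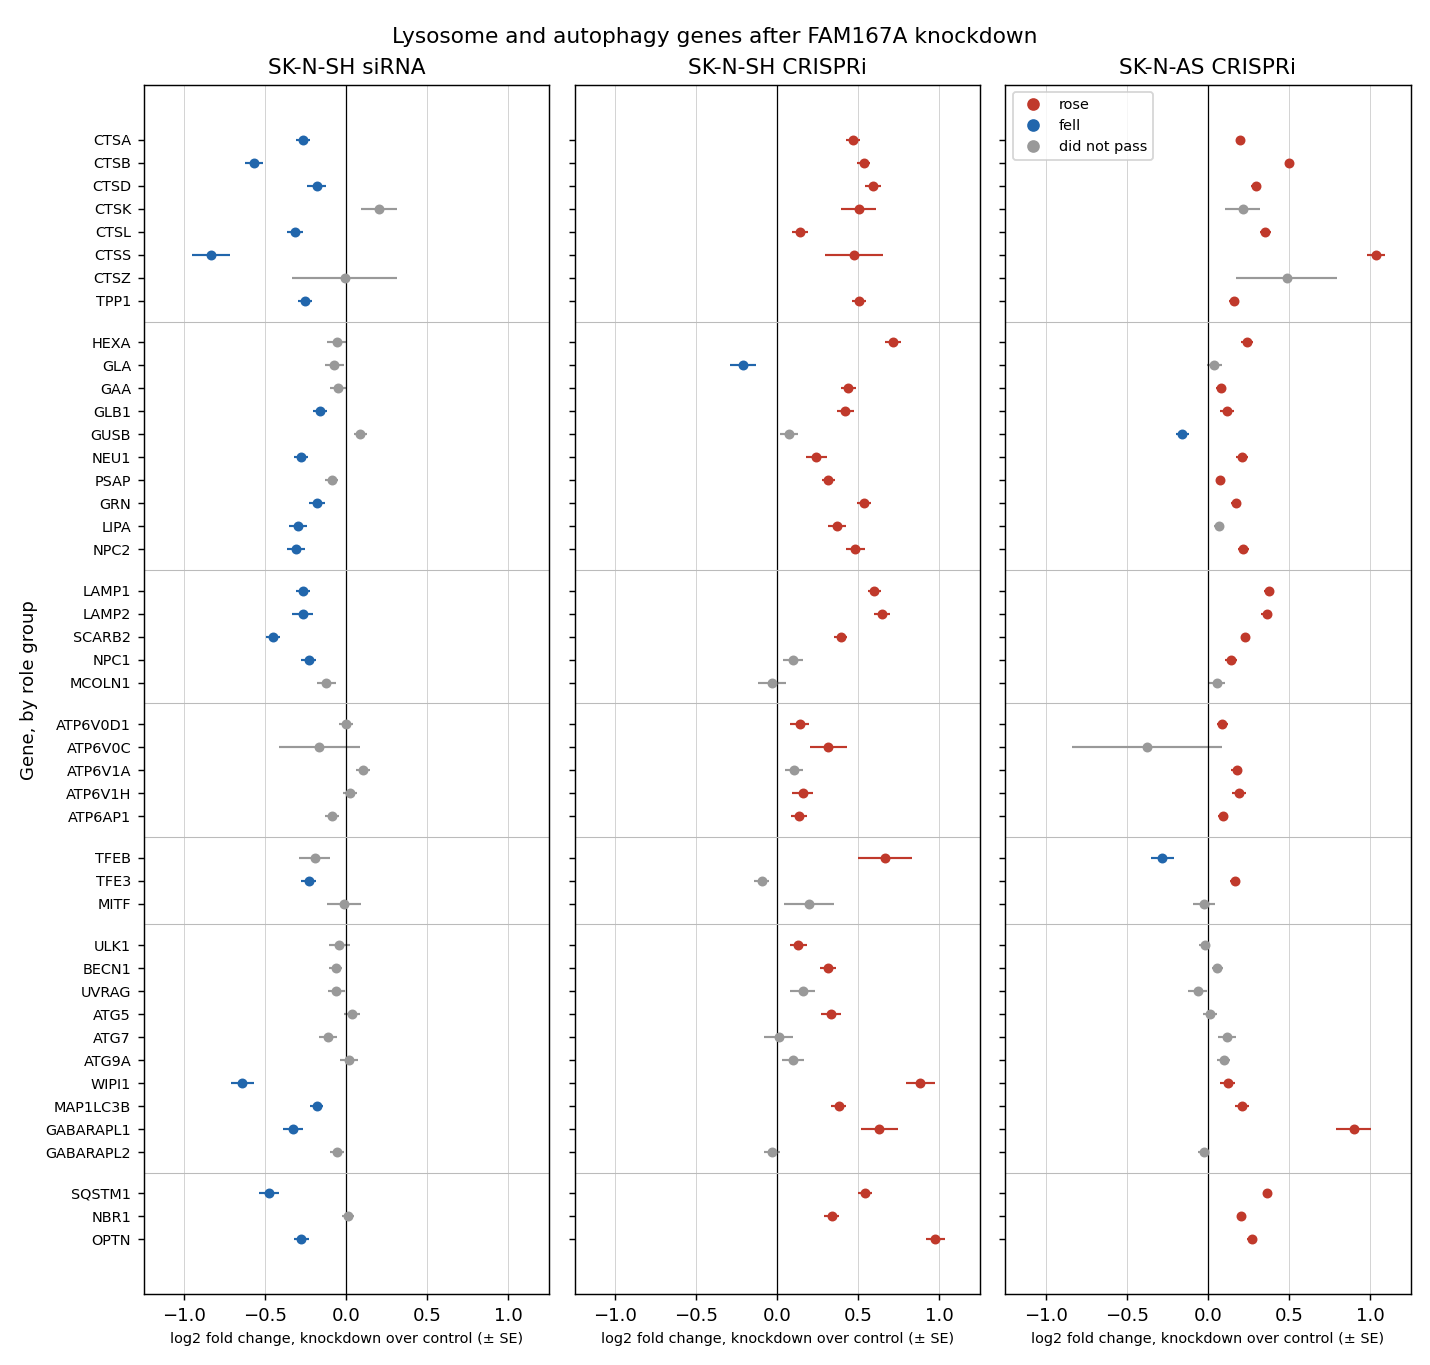
Log2 fold change of knockdown over control, with its standard error, for each of the 44 genes in each experiment where it was tested, in blocks from top to bottom of proteases, glycosidases with lipase and activators, membrane proteins, proton pump, transcription factors, autophagosome formation and autophagy receptors. CTSZ was not tested in SK-N-SH CRISPRi and has no point in that panel. Red points rose, blue points fell and grey points did not pass the test; 21 points are blue in the siRNA panel, and 32 and 28 are red in the CRISPRi panels.

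Cell state markers were read in the same experiments. The summed level of 6 mesenchymal neuroblastoma markers (VIM, FN1, PRRX1, CD44, SNAI2 and YAP1) was 1552 to 1824 CPM after siRNA knockdown and 2110 to 2278 CPM in its controls, and all 6 were detected at 1 CPM or more. It was 10560 to 11160 CPM after knockdown and 5479 to 6303 CPM in controls in SK-N-SH CRISPRi, and 2684 to 2757 CPM and 2422 to 2458 CPM in SK-N-AS CRISPRi. The summed level of 7 adrenergic markers, of which all but TH reached 1 CPM, was 1915 to 2096 CPM after siRNA knockdown and 1844 to 2014 CPM in controls. In SK-N-SH CRISPRi it was 689 to 729 CPM after knockdown and 1790.0 to 1876 CPM in controls, and in SK-N-AS CRISPRi 1053 to 1107 CPM and 1172 to 1224 CPM. The mean of 6 of the 6 mesenchymal markers was lower after siRNA knockdown, and that of 6 of 6 was higher in SK-N-SH CRISPRi. In SK-N-AS CRISPRi 5 of 6 were higher, and FN1 was lower, at 103.2 CPM after knockdown and 112.9 CPM in controls. Of the 6 adrenergic markers at 1 CPM or more, 5 had a higher and 1 a lower mean after siRNA knockdown, with overlapping sums. All 6 were lower in each CRISPRi experiment. Some of the marker differences were small, such as SNAI2 in SK-N-SH CRISPRi (7.69 CPM after knockdown, 7.01 CPM in controls) and HAND2 in SK-N-AS CRISPRi (607.8 and 612.1 CPM). The part of these markers in the result was not tested. In bulk RNA, fewer cells of one state and less RNA per cell cannot be told apart.

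Blood cell markers, which would accompany lysosome-rich macrophages, were at or near 0 in SK-N-SH: the sum of 7 was at most 1.15 CPM after siRNA knockdown and 1.33 CPM in its controls, and at most 1.504 CPM after knockdown and 1.74 CPM in controls in the CRISPRi experiment. LYZ had no read in the siRNA knockdown libraries, and AIF1, ITGAM and SPI1 had none in the CRISPRi knockdown libraries. In SK-N-AS the sum was 437 to 464 CPM after knockdown and 518 to 562 CPM in controls, and PTPRC was the 1 marker of the 7 at 1 CPM or more. The 4 osteoclast markers summed to at most 2.63 CPM in any SK-N-SH library. In SK-N-AS they summed to 8.68 to 9.48 CPM after knockdown and 3.38 to 4.07 CPM in controls, with ACP5, a lysosomal acid phosphatase, as the 1 of the 4 at 1 CPM or more there.

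**Figure D2:**
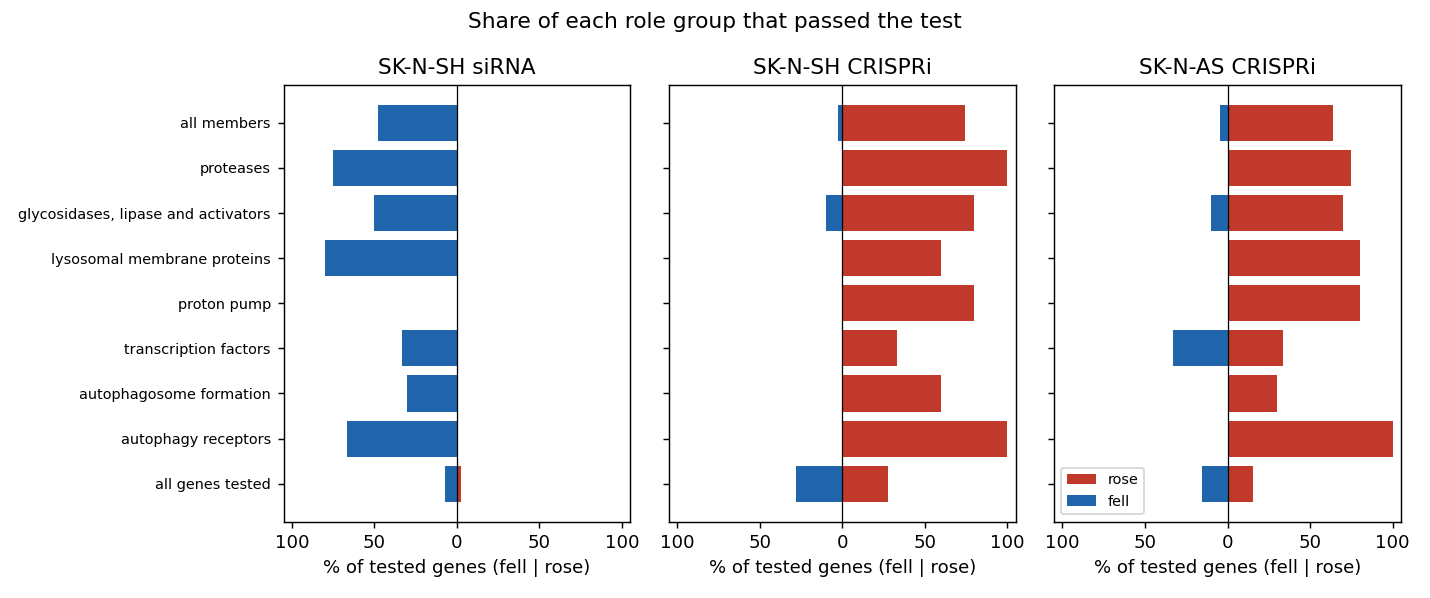
Share of the tested members of each role group, in percent, that fell (blue, to the left of 0) or rose (red, to the right of 0) in each experiment, with all members at the top and all genes tested at the bottom. The proton pump has no bar in the siRNA panel and 80.0% rising in both CRISPRi panels, and all 3 autophagy receptors rose in both CRISPRi experiments.

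The proteases of the lysosome, mostly cathepsins, fell after siRNA in 6 of 8 and rose in 7 of 7 tested members in SK-N-SH CRISPRi and in 6 of 8 in SK-N-AS CRISPRi. CTSB encodes cathepsin B, a cysteine protease, and is the member with the smallest adjusted p among proteases in the siRNA and in both CRISPRi experiments. It had 310.1, 349, 308, 293 and 344 CPM in the knockdown libraries, against 474, 475, 484, 524 and 424 CPM in the control libraries in the siRNA experiment, a log2 fold change of -0.57 ± 0.056 (adjusted p = 2.1e-07). In SK-N-SH CRISPRi it had 475, 469.6 and 468 CPM after knockdown, against 333, 313 and 330.0 CPM in controls (0.53 ± 0.038, adjusted p = 7.1e-15). In SK-N-AS CRISPRi it had 358, 350.1, 341 and 352 CPM after knockdown, against 249.7, 244, 248 and 250.4 CPM in controls (0.50 ± 0.025, adjusted p = 8e-18). Knockdown and control libraries did not overlap in any of the 3, and the siRNA knockdown libraries were the low ones where the CRISPRi knockdown libraries were the high ones. CTSB lies on chromosome 8 (8:11842524-11869533, GRCh38), 367 kb from FAM167A.

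CTSS, cathepsin S, is best known from antigen-presenting cells, where it cuts the invariant chain. It had 3.38, 2.44, 3.31, 2.64 and 2.57 CPM after knockdown, against 4.74, 4.94, 5.42, 6.09 and 4.46 CPM in controls in the siRNA experiment (-0.84 ± 0.12, adjusted p = 2.1e-05). In SK-N-AS CRISPRi it had 26.0, 25.6, 28.2 and 28.0 CPM after knockdown, against 12.5, 13.5, 13.3 and 13.2 CPM in controls (1.04 ± 0.054, adjusted p = 2.5e-17). In SK-N-SH CRISPRi, where it was low, it had 5.17, 3.85 and 3.83 CPM after knockdown, against 2.56, 3.43 and 3.13 CPM in controls (0.48 ± 0.18, adjusted p = 0.024). The SK-N-AS rise was the largest fold change of any member in the 3 experiments, with each knockdown library near 2 times the controls. The SK-N-SH CRISPRi call was lost without knockdown library 1 (adjusted p = 0.19), without control library 1 (0.077) or without control library 3 (0.059), and under total-count scaling (0.097).

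CTSD, cathepsin D, the main aspartic protease of the lysosome, had 104.6, 99.2 and 107 CPM after knockdown, against 72.8, 64.0 and 69.5 CPM in controls in SK-N-SH CRISPRi (0.59 ± 0.05, adjusted p = 5.6e-13). It also rose in SK-N-AS CRISPRi (0.30 ± 0.032). After siRNA its groups overlapped and its call was marginal (-0.18 ± 0.057, adjusted p = 0.049), and it was lost, with an adjusted p of 0.057 to 0.17, when any of knockdown libraries 1, 2, 4 and 5 or control libraries 1, 2, 3 and 4 was left out, and on the total-count scale (0.17). CTSD overlaps another coding gene on its strand, so some of its reads could belong to that gene.

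TPP1, the tripeptidyl peptidase that is mutated in a form of neuronal ceroid lipofuscinosis, had 63.0, 69.9, 64.4, 61.3 and 67.4 CPM after knockdown, against 75.4, 78.7, 76.7, 81.7 and 76.4 CPM in controls in the siRNA experiment (-0.25 ± 0.043, adjusted p = 0.00022). It had 105.2, 112 and 109.7 CPM after knockdown, against 76.2, 76.9 and 77.0 CPM in controls in SK-N-SH CRISPRi (0.50 ± 0.045, adjusted p = 3.6e-12) and 142, 139.5, 139 and 146 CPM after knockdown, against 125, 130.5, 125 and 126 CPM in controls in SK-N-AS CRISPRi (0.16 ± 0.029, adjusted p = 3.3e-05). The groups stood apart in all 3 experiments. CTSA, a serine carboxypeptidase that also protects the lysosomal galactosidase and neuraminidase, followed the same order, at -0.27 ± 0.044 with siRNA, 0.47 ± 0.043 in SK-N-SH CRISPRi and 0.20 ± 0.026 in SK-N-AS CRISPRi.

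CTSL, cathepsin L, fell with siRNA (-0.32 ± 0.047) and rose in SK-N-AS CRISPRi (0.35 ± 0.035). Its smaller rise in SK-N-SH CRISPRi (0.14 ± 0.051, adjusted p = 0.02) was lost without knockdown libraries 2 or 3 (0.069 and 0.050) or control 1 (0.055), and was 0.01 on the total-count scale (0.87). CTSK, the collagen-cutting cathepsin K of osteoclasts, was called as a rise in SK-N-SH CRISPRi (0.50 ± 0.11, adjusted p = 0.00014). The siRNA (0.20 ± 0.11, adjusted p = 0.3) and SK-N-AS values (0.21 ± 0.11, adjusted p = 0.15) did not pass. The siRNA value passed without control library 5 (0.039). Tested directly, the SK-N-SH CRISPRi response of CTSK was not called different from that with siRNA (0.29 ± 0.18, adjusted p = 0.24). Nor was it called different from that in SK-N-AS CRISPRi (0.30 ± 0.16, adjusted p = 0.17). CTSZ was below 1 CPM in every library and did not pass where it was tested.

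Among the glycosidases, lipase and activators, 5 of 10 fell with siRNA, 8 rose and 1 fell in SK-N-SH CRISPRi, and 7 rose and 1 fell in SK-N-AS CRISPRi. NEU1, the lysosomal sialidase, had 36.7, 40.5, 39.9, 39.5 and 38.4 CPM after knockdown, against 47.8, 47.2, 45.5, 49.95 and 46.6 CPM in controls in the siRNA experiment (-0.28 ± 0.044, adjusted p = 9.5e-05). NPC2, the soluble protein that hands cholesterol to NPC1, had 34.7, 31.9, 32.0, 30.6 and 37.8 CPM after knockdown, against 42.1, 42.0, 40.0, 43.8 and 39.3 CPM in controls there (-0.31 ± 0.055, adjusted p = 0.00039). The knockdown libraries of both genes were all below the controls. In SK-N-AS CRISPRi NPC2 had 85.0, 82.4, 79.8 and 85.9 CPM after knockdown, against 73.7, 69.5, 72.2 and 70.8 CPM in controls (0.22 ± 0.034, adjusted p = 3.4e-06), and in SK-N-SH CRISPRi its log2 fold change was 0.48 ± 0.06. NEU1 rose by 0.24 ± 0.066 in SK-N-SH CRISPRi, a rise that was 0.11 on the total-count scale (adjusted p = 0.14), and by 0.21 ± 0.036 in SK-N-AS.

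HEXA, the alpha subunit of beta-hexosaminidase that is lost in Tay-Sachs disease, had 108, 107 and 104 CPM after knockdown, against 60.9, 66.2 and 66.7 CPM in controls in SK-N-SH CRISPRi (0.71 ± 0.048, adjusted p = 9.4e-16), the largest rise of the group. The SK-N-AS CRISPRi libraries had 81.5, 79.8, 80.5 and 82.8 CPM after knockdown, against 68.6, 65.3, 68.2 and 72.1 CPM in controls (0.24 ± 0.034, adjusted p = 6.7e-07). With siRNA it had 15.6, 17.3, 17.3, 18.9 and 18.7 CPM after knockdown, against 18.5, 18.2, 17.1, 19.4 and 18.3 CPM in controls, overlapping groups that did not pass (-0.059 ± 0.06, adjusted p = 0.63). HEXA overlaps another coding gene on its strand, as does GLB1. Its control mean was 18.3 CPM in the siRNA table and 64.6 CPM in the SK-N-SH CRISPRi table of the same line, so its levels are not comparable between the tables.

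GRN encodes progranulin, which is cut into granulins in the lysosome. It had 242, 242 and 235 CPM after knockdown, against 176, 154 and 166 CPM in controls in SK-N-SH CRISPRi (0.54 ± 0.043, adjusted p = 1.4e-13). It also rose in SK-N-AS CRISPRi (0.17 ± 0.027) and fell with siRNA (-0.18 ± 0.049, adjusted p = 0.021). The siRNA groups overlapped, and that call was lost without control library 1, 2 or 4 (adjusted p = 0.056, 0.055 and 0.062) and on the total-count scale (0.13). GAA, the acid alpha-glucosidase of Pompe disease, rose in SK-N-SH CRISPRi, with 205, 212 and 201 CPM after knockdown, against 158, 139.6 and 158 CPM in controls (0.44 ± 0.044, adjusted p = 1e-10). Its change in SK-N-AS CRISPRi was 0.079 ± 0.029 (adjusted p = 0.032), a call lost without knockdown library 1 or 2 or control library 2 or 3 (0.064 to 0.16), and with siRNA it did not pass (-0.049 ± 0.052).

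The remaining members of the group had smaller or mixed values. GLB1, the acid beta-galactosidase, fell with siRNA (-0.17 ± 0.043, lost without control library 4 with an adjusted p of 0.058 and on the total-count scale with 0.076) and rose in both CRISPRi experiments (0.42 ± 0.052 in SK-N-SH, and 0.12 ± 0.042 in SK-N-AS, lost without knockdown library 1 or 3 or control library 4, with 0.094 to 0.11). LIPA, the acid lipase, fell with siRNA (-0.30 ± 0.056) and rose in SK-N-SH CRISPRi (0.37 ± 0.055), and did not pass in SK-N-AS (0.07 ± 0.032, adjusted p = 0.098). PSAP, the precursor of the saposin activators, had the highest level per kilobase of gene model of the 44 members in the controls of each experiment, at 213, 187 and 278 CPM per kilobase in siRNA, SK-N-SH CRISPRi and SK-N-AS CRISPRi controls. It rose in SK-N-SH CRISPRi (0.32 ± 0.038) and SK-N-AS CRISPRi (0.074 ± 0.023, adjusted p = 0.011), and its siRNA value was not called (-0.091 ± 0.043).

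GLA, the alpha-galactosidase of Fabry disease, was the 1 member that fell in SK-N-SH CRISPRi (-0.21 ± 0.081, adjusted p = 0.027), and that call was lost without knockdown library 1 or 3 or control library 1 or 3 (adjusted p = 0.078 to 0.096). It did not pass with siRNA (-0.075 ± 0.059) or in SK-N-AS (0.04 ± 0.045). GUSB, the beta-glucuronidase, fell in SK-N-AS CRISPRi (-0.16 ± 0.037, adjusted p = 0.0011), with 48.2 ± 1.44 CPM after knockdown and 53.7 ± 1.02 CPM in controls (SD, n = 4 each). It did not pass with siRNA (0.086 ± 0.042) or in SK-N-SH CRISPRi (0.073 ± 0.054).

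Of the 5 lysosomal membrane proteins, 4 fell with siRNA, 3 rose in SK-N-SH CRISPRi and 4 rose in SK-N-AS CRISPRi. SCARB2 (LIMP-2) carries glucocerebrosidase to the lysosome. It had 269.8, 269, 271, 256 and 271 CPM after knockdown, against 378, 359, 386, 368 and 340.2 CPM in controls in the siRNA experiment (-0.45 ± 0.042, adjusted p = 4.6e-08), the smallest adjusted p of any member there. In SK-N-SH CRISPRi it had 365, 394 and 374 CPM after knockdown, against 277, 293 and 294 CPM in controls (0.39 ± 0.04, adjusted p = 9.6e-11), and in SK-N-AS CRISPRi 241, 234, 237 and 246 CPM after knockdown, against 194, 208, 213 and 201 CPM in controls (0.23 ± 0.029, adjusted p = 5.3e-08). No knockdown value overlapped a control value in any of the 3.

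LAMP1 and LAMP2 are the heavily glycosylated proteins that line the lysosomal membrane, and a LAMP2 splice form is the receptor of chaperone-mediated autophagy. LAMP1 had 251, 276, 250.2, 242 and 271 CPM after knockdown, against 299, 319, 301, 329.9 and 304 CPM in controls in the siRNA experiment (-0.27 ± 0.045, adjusted p = 0.00021). It had 368, 366 and 369 CPM after knockdown, against 255, 226 and 248 CPM in controls in SK-N-SH CRISPRi (0.60 ± 0.041, adjusted p = 2.1e-15), and 394, 394, 367 and 388 CPM after knockdown, against 297, 296, 293 and 306 CPM in controls in SK-N-AS CRISPRi (0.37 ± 0.026, adjusted p = 7.4e-14). The 3 comparisons were without overlap, low with siRNA and high with CRISPRi. LAMP2 had 166, 177 and 153 CPM after knockdown, against 109.7, 99.5 and 107 CPM in controls in SK-N-SH CRISPRi (0.65 ± 0.049, adjusted p = 8.9e-13). Its SK-N-AS CRISPRi values were 118, 111, 123 and 123 CPM after knockdown, against 86.5, 94.2, 94.7 and 94.0 CPM in controls (0.36 ± 0.035, adjusted p = 2.5e-10). Its siRNA groups overlapped through control library 5 at 84.1 CPM, which was below knockdown libraries 2 and 5, and its log2 fold change there was -0.27 ± 0.062 (adjusted p = 0.0085).

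NPC1, the membrane exporter of cholesterol, fell with siRNA (-0.23 ± 0.048, adjusted p = 0.0019) and rose in SK-N-AS CRISPRi (0.14 ± 0.037, adjusted p = 0.0033), and did not pass in SK-N-SH CRISPRi (0.097 ± 0.063). MCOLN1, the calcium channel TRPML1, was the membrane protein that passed in none of the 3 experiments (-0.12 ± 0.06 with siRNA, -0.03 ± 0.087 in SK-N-SH CRISPRi and 0.055 ± 0.049 in SK-N-AS CRISPRi), with overlapping groups in each.

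**Figure D3:**
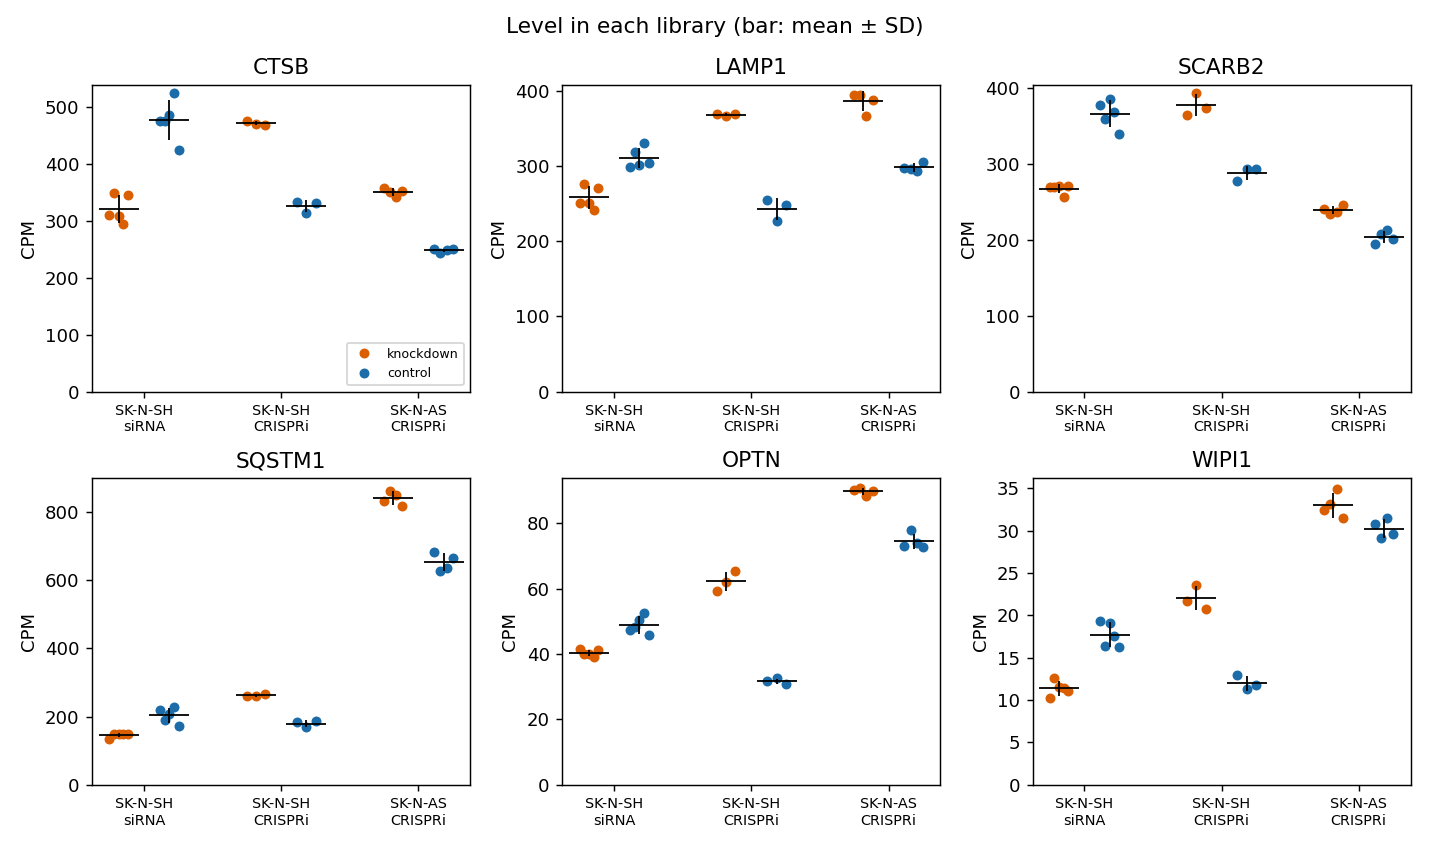
Level in CPM of CTSB, LAMP1, SCARB2, SQSTM1, OPTN and WIPI1 in every library, with knockdown (orange) left of control (blue) in each experiment and bars at the mean ± SD. The orange points lie below the blue points in the siRNA experiment and above them in SK-N-SH CRISPRi for all 6 genes, and in SK-N-AS CRISPRi WIPI1 is the 1 gene of the 6 whose groups touch.

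The proton pump, or V-ATPase, acidifies the lysosome, and the fold changes of its genes were small. None of the 5 passed with siRNA, with 1 higher and 1 lower at an unadjusted p under 0.05 and 0 called by DESeq2. Of all genes 9.53% were called there, so 0 of 5 does not set the pump genes apart. ATP6V1A, the catalytic subunit, had 79.3, 78.9, 80.0, 75.8 and 79.7 CPM after knockdown, against 79.2, 73.3, 73.2, 74.8 and 66.3 CPM in controls there (0.10 ± 0.044, adjusted p = 0.16), and on the total-count scale it rose by 0.15 (adjusted p = 0.024). ATP6AP1, an accessory subunit, had 128, 146, 142, 129.8 and 139 CPM after knockdown, against 143, 149, 141, 154 and 142 CPM in controls with siRNA (-0.09 ± 0.043, adjusted p = 0.23). Both had overlapping groups.

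With CRISPRi, 4 of the 5 pump genes rose in each line by small amounts, where 27.7% of all genes rose in SK-N-SH and 15.2% in SK-N-AS. In SK-N-SH they were ATP6AP1, ATP6V0C, ATP6V0D1 and ATP6V1H. ATP6AP1 had 124, 135 and 131 CPM after knockdown, against 124, 108 and 122 CPM in controls (0.14 ± 0.049, adjusted p = 0.017), with control library 1 level with the lowest knockdown library. ATP6V0C, the proteolipid of the membrane ring, had 9.68, 9.04 and 8.75 CPM after knockdown, against 6.86, 7.39 and 7.63 CPM in controls (0.32 ± 0.12, adjusted p = 0.02). All 4 SK-N-SH calls were lost on the total-count scale (adjusted p = 0.17 to 0.90), and DESeq2 called 1 of the 5. Each was also lost when single libraries were left out: ATP6AP1 without knockdown library 2 or 3 or control library 2 (0.051 to 0.14), ATP6V0C without knockdown or control library 1 (0.060 to 0.080), ATP6V0D1 without knockdown library 2 or 3 or control library 2 or 3 (0.10 to 0.18), and ATP6V1H without knockdown library 1 or 3 or control library 1 or 2 (0.066 to 0.12).

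In SK-N-AS CRISPRi the 4 were ATP6V1A, ATP6V1H, ATP6AP1 and ATP6V0D1, and DESeq2 also called 4. ATP6V1A had 93.9, 94.2, 99.2 and 100.3 CPM after knockdown, against 81.7, 89.0, 87.5 and 84.5 CPM in controls (0.18 ± 0.034, adjusted p = 7.6e-05). ATP6V1H, a regulatory subunit of the cytoplasmic part, had 49.3, 47.3, 53.0 and 50.4 CPM after knockdown, against 41.5, 47.3, 43.0 and 43.6 CPM in controls (0.19 ± 0.043, adjusted p = 0.00054). ATP6V1A was the pump gene without overlap, while knockdown library 2 and control library 2 of ATP6V1H were level. The changes of ATP6AP1 (0.091 ± 0.031) and ATP6V0D1 (0.089 ± 0.034) were lost without single libraries: ATP6AP1 without knockdown library 1 or control library 2 or 3 (adjusted p = 0.060 to 0.11), and ATP6V0D1 without knockdown library 1 or 2 or control library 2 or 3 (0.051 to 0.17). ATP6V0C was below 1 CPM in every SK-N-AS and siRNA library, overlaps other coding genes on its strand and did not pass there. Its level is not comparable between the tables, which list different numbers of genes.

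The transcription factors of the pathway did not move as a group. TFEB had 5.10, 5.87 and 6.39 CPM after knockdown, against 3.47, 4.62 and 3.04 CPM in controls in SK-N-SH CRISPRi (0.67 ± 0.16, adjusted p = 0.00076). In SK-N-AS CRISPRi it had 11.02, 11.02, 11.5 and 9.70 CPM after knockdown, against 14.6, 11.4, 13.1 and 12.97 CPM in controls (-0.28 ± 0.07, adjusted p = 0.002), and with siRNA 4.15, 5.49, 4.94, 4.49 and 4.15 CPM after knockdown, against 4.88, 5.58, 5.62, 5.24 and 5.24 CPM in controls (-0.20 ± 0.095, adjusted p = 0.23). TFEB mRNA thus rose in one CRISPRi experiment and fell in the other, where knockdown library 3 and control library 2 overlapped by a small amount. It was the 1 member called in both CRISPRi experiments in opposite directions.

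TFE3 had 55.4, 59.5, 54.2, 56.9 and 54.8 CPM after knockdown, against 61.8, 66.7, 63.4, 72.7 and 65.2 CPM in controls with siRNA (-0.23 ± 0.046, adjusted p = 0.0014). The SK-N-AS CRISPRi values were 84.0, 82.1, 79.9 and 78.7 CPM after knockdown, against 73.0, 70.8, 73.3 and 72.1 CPM in controls (0.17 ± 0.033, adjusted p = 0.00014). In SK-N-SH CRISPRi it had 84.4, 82.5 and 82.4 CPM after knockdown, against 93.4, 82.9 and 90.4 CPM in controls (-0.097 ± 0.048, adjusted p = 0.089), and it fell there on the total-count scale (-0.23, adjusted p = 0.00011). MITF, which is also the regulator of pigment cell genes, passed in no experiment (-0.012 ± 0.11, 0.20 ± 0.15 and -0.026 ± 0.069 in siRNA, SK-N-SH CRISPRi and SK-N-AS CRISPRi). These are mRNA levels, and the location and activity of the proteins were not measured.

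TFEB and its relatives bind the 6-base sequence CACGTG, best with T before it and A after it. RefSeq promoters (GRCh38.p14, 250 bases before to 50 after each start) were at hand for 35 of the 44 members, and CACGTG was searched in them. The motif reads the same on both strands, and the longer form contains it. At least 1 match was present in 7 of 35 members (20%), ATP6V0D1, CTSA, CTSD, GAA, LAMP1, MCOLN1 and NEU1, against 8.77% of the 27305 genes of the promoter table. TCACGTGA was present in 5 of 35 (14.3%; ATP6V0D1, CTSA, GAA, LAMP1 and MCOLN1) against 1.18%. LAMP1 and NEU1 were called in all 3 experiments, as were CTSA and CTSD, which also hold a match. GAA and ATP6V0D1 were called with CRISPRi alone and MCOLN1 in none. Some of these calls were lost under an alternative processing or without a library. They were those of CTSD with siRNA, ATP6V0D1 and NEU1 in SK-N-SH CRISPRi, and ATP6V0D1 and GAA in SK-N-AS CRISPRi. The sequences of LAMP1, NEU1, GAA and MCOLN1 are shown as examples. Each runs 5′ to 3′ on the gene's strand from 250 bases before the start and stops before the first annotated exon, with CACGTG in capitals. LAMP1 is chr13:113296989-113297238 (plus strand), NEU1 is chr6:31862907-31863071 (minus strand), GAA is chr17:80101331-80101555 (plus strand) and MCOLN1 is chr19:7522374-7522623 (plus strand).
LAMP1: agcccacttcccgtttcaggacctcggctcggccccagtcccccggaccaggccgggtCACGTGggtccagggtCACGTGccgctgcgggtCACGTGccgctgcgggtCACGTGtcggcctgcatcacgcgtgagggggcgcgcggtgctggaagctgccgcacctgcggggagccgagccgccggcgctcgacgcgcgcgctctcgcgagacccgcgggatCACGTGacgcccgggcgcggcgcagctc
NEU1: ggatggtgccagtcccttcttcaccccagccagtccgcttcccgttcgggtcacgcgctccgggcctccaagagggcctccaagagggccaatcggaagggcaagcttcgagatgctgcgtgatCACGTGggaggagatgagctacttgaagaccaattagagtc
GAA: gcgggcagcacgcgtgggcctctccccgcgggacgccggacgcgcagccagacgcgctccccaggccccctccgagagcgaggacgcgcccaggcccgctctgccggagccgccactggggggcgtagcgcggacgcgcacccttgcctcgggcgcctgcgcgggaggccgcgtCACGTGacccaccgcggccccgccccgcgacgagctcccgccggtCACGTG
MCOLN1: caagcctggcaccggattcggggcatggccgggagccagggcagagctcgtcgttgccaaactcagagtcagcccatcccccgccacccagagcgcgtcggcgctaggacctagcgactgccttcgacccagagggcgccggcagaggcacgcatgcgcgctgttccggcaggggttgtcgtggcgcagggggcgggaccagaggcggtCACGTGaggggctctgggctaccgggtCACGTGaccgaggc
The LAMP1 stretch held 5 copies of the motif, GAA and MCOLN1 2 each and NEU1 1. Of the 7 members with a match, 4 fell with siRNA, 6 rose in SK-N-SH CRISPRi and 6 rose in SK-N-AS CRISPRi. Of the members without one, 14 of 28 fell with siRNA, 19 of 27 rose and 1 fell in SK-N-SH CRISPRi, and 15 of 28 rose and 2 fell in SK-N-AS CRISPRi. The median log2 fold changes with and without a match were -0.18 and -0.17 with siRNA, 0.44 and 0.33 in SK-N-SH CRISPRi, and 0.20 and 0.12 in SK-N-AS CRISPRi. A match describes the letters of the window and is not evidence of binding.

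Of the 10 genes of autophagosome formation, 3 fell with siRNA (WIPI1, MAP1LC3B and GABARAPL1), and these 3 rose in both CRISPRi experiments. WIPI1 binds the lipid made at the start of autophagosome formation. It had 10.2, 12.7, 11.5, 11.4 and 11.02 CPM after knockdown, against 19.3, 16.3, 19.1, 17.6 and 16.2 CPM in controls with siRNA (-0.64 ± 0.069, adjusted p = 6e-07), and 21.7, 23.6 and 20.8 CPM after knockdown, against 12.98, 11.3 and 11.7 CPM in controls in SK-N-SH CRISPRi (0.88 ± 0.09, adjusted p = 8.7e-11). In SK-N-AS CRISPRi it had 32.5, 33.2, 35.0 and 31.5 CPM after knockdown, against 30.8, 29.2, 31.5 and 29.6 CPM in controls, with groups that met at 31.5 CPM (0.12 ± 0.045, adjusted p = 0.037). The 2 SK-N-SH experiments were without overlap and opposite in direction. The SK-N-AS call was lost without knockdown library 1, 2 or 3 or control library 2 or 4 (adjusted p = 0.050 to 0.14).

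GABARAPL1 and MAP1LC3B encode proteins that are joined to lipid on the autophagosome and bind cargo receptors. GABARAPL1 had 10.7, 10.3, 9.90, 9.59 and 10.2 CPM after knockdown, against 12.4, 12.6, 12.6, 13.6 and 12.6 CPM in controls with siRNA (-0.33 ± 0.061, adjusted p = 0.00068). In SK-N-AS CRISPRi, where it was low, it had 4.56, 4.48, 4.79 and 4.61 CPM after knockdown, against 2.14, 2.80, 2.43 and 2.63 CPM in controls (0.90 ± 0.11, adjusted p = 3e-08), and in SK-N-SH CRISPRi 13.1, 14.0 and 15.7 CPM after knockdown, against 10.6, 9.96 and 7.76 CPM in controls (0.63 ± 0.11, adjusted p = 1e-05). All 3 comparisons were without overlap. MAP1LC3B had 95.2, 93.2 and 96.6 CPM after knockdown, against 72.7, 72.7 and 73.6 CPM in controls in SK-N-SH CRISPRi (0.38 ± 0.046, adjusted p = 5.4e-09). For SK-N-AS CRISPRi the values were 45.7, 46.1, 50.6 and 48.1 CPM after knockdown, against 42.8, 40.5, 41.0 and 40.0 CPM in controls (0.21 ± 0.041, adjusted p = 0.00011), and it fell with siRNA (-0.18 ± 0.04). Its close copy MAP1LC3B2 could share reads with it.

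The other genes of this role were mostly not called. ULK1, the kinase that starts autophagy, BECN1, a subunit of the lipid kinase complex, and ATG5, part of the conjugation machinery, rose in SK-N-SH CRISPRi (0.13 ± 0.05, 0.31 ± 0.048 and 0.33 ± 0.062). The ULK1 rise was lost without knockdown library 1 (adjusted p = 0.12) or control library 2 (0.055) and was 0.0023 on the total-count scale. None of the 3 passed with siRNA (-0.043, -0.065 and 0.033) or in SK-N-AS CRISPRi (-0.02, 0.058 and 0.015). UVRAG, a partner of BECN1, ATG7, the activating enzyme of conjugation, ATG9A, the membrane-spanning lipid scramblase, and GABARAPL2 passed in none of the 3 experiments. Their log2 fold changes lay between -0.12 (ATG7) and 0.017 (ATG9A) with siRNA, between -0.032 (GABARAPL2) and 0.16 (UVRAG) in SK-N-SH CRISPRi and between -0.064 (UVRAG) and 0.12 (ATG7) in SK-N-AS CRISPRi. GABARAPL2 fell in SK-N-SH CRISPRi on the total-count scale (-0.16, adjusted p = 0.0054).

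The autophagy receptors, which link ubiquitin-tagged cargo to LC3 and GABARAP proteins, all rose with CRISPRi in both lines, and 2 of 3 fell with siRNA. SQSTM1 (p62) had 135, 149, 149.6, 149 and 148 CPM after knockdown, against 219.5, 189, 208, 229 and 174 CPM in controls with siRNA (-0.48 ± 0.061, adjusted p = 2.9e-05). It had 260.3, 259 and 266 CPM after knockdown, against 184, 168 and 186 CPM in controls in SK-N-SH CRISPRi (0.54 ± 0.042, adjusted p = 4.2e-14), and 833, 863, 849.8 and 818 CPM after knockdown, against 683, 626, 636 and 664 CPM in controls in SK-N-AS CRISPRi (0.37 ± 0.026, adjusted p = 8.8e-14). Every knockdown library was on one side of the controls in each experiment, the low side with siRNA and the high side with CRISPRi.

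OPTN, optineurin, a receptor for mitochondria and bacteria, had 41.6, 40.1, 39.9, 39.0 and 41.1 CPM after knockdown, against 47.5, 48.1, 50.5, 52.7 and 45.8 CPM in controls with siRNA (-0.28 ± 0.045, adjusted p = 0.00015). In SK-N-SH CRISPRi it had 59.3, 62.0 and 65.3 CPM after knockdown, against 31.6, 32.5 and 30.9 CPM in controls (0.98 ± 0.059, adjusted p = 4.2e-17), the largest rise of a member in that experiment. The SK-N-AS CRISPRi values were 90.2, 90.7, 88.2 and 89.8 CPM after knockdown, against 73.0, 77.9, 74.1 and 72.8 CPM in controls (0.27 ± 0.032, adjusted p = 2e-08). The groups were apart in each of the 3. NBR1, which acts with SQSTM1, rose in SK-N-SH CRISPRi (0.34 ± 0.047) and SK-N-AS CRISPRi (0.20 ± 0.028) but was not called with siRNA (0.0088 ± 0.036, adjusted p = 0.92).

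The direction of change was compared between experiments, which share no library. Of the 43 members tested in all 3, 18 were called in all 3, against 5.71% of the 13943 genes tested in all 3. They were CTSA, CTSB, CTSD, CTSL, CTSS, TPP1, GLB1, NEU1, GRN, NPC2, LAMP1, LAMP2, SCARB2, WIPI1, MAP1LC3B, GABARAPL1, SQSTM1 and OPTN. All 18 fell with siRNA and rose in both CRISPRi experiments. Thus 0 members rose in all 3 and 0 fell in all 3, where 0.452% and 0.337% of all genes did. Shares that small do not set 0 of 43 members apart. These directions, and those between siRNA and each CRISPRi experiment below, follow from the counts within each experiment. No member rose with siRNA, and GLA, GUSB and TFEB, the members that fell with CRISPRi, were not called with siRNA. Some calls of the 18 members were lost under an alternative processing or without a library. They were those of CTSD, GLB1 and GRN with siRNA, CTSL, CTSS and NEU1 in SK-N-SH CRISPRi, and GLB1 and WIPI1 in SK-N-AS CRISPRi. Between siRNA and SK-N-SH CRISPRi, which use the same line, 19 members were called in both and all 19 had opposite directions, while 1098 of 1403 genes called in both (78.3%) were opposite. Between siRNA and SK-N-AS CRISPRi, 20 of 20 members were opposite, against 702 of 1001 genes (70.1%). Between the CRISPRi experiments, 25 of 26 members (96.2%) had the same direction, against 2851 of 3660 genes (77.9%).

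Over the members, Pearson's r of the log2 fold changes was -0.45 between siRNA and SK-N-SH CRISPRi (43 genes), -0.55 between siRNA and SK-N-AS CRISPRi (44 genes) and 0.35 between the CRISPRi experiments (43 genes). The corresponding Spearman's rho was -0.49, -0.49 and 0.54. ATP6V0C, which had few reads with siRNA and in SK-N-AS CRISPRi, is included in each of these values, and CTSZ in those over 44 genes. Over all genes r was -0.22, -0.11 and 0.27. These are correlations across genes that come from the same libraries, and genes are not independent replicates.

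**Figure D4:**
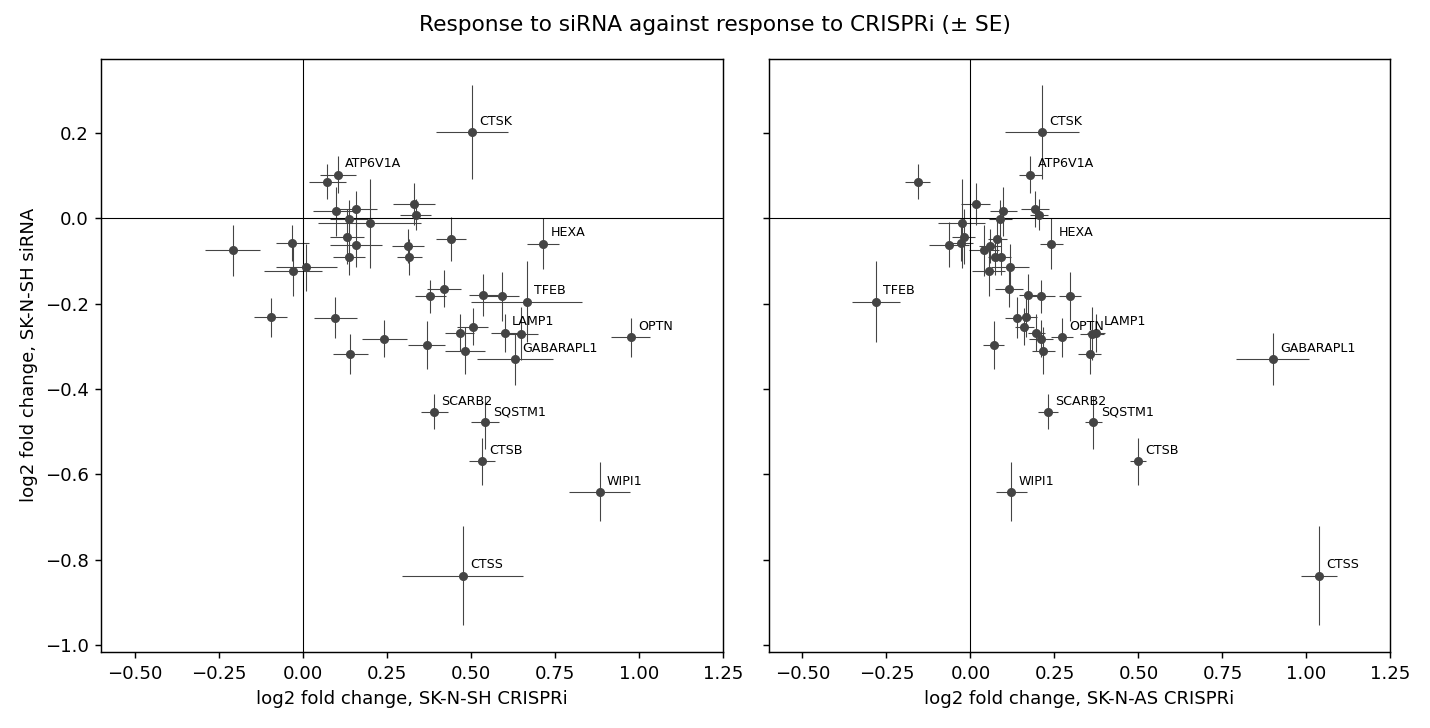
Log2 fold change of each member with siRNA (vertical axis) against its log2 fold change with CRISPRi in SK-N-SH (left) and SK-N-AS (right), with standard errors as bars. ATP6V0C and CTSZ, which had few reads, are not drawn. Most points lie at the lower right, lower with siRNA and higher with CRISPRi, and GABARAPL1 and CTSS stand far to the right in SK-N-AS.

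Whether the responses differed between experiments was tested directly, as knockdown minus control in one experiment less the same in the other. For SK-N-SH CRISPRi minus SK-N-SH siRNA, 28 of 44 members differed and all 28 differences were positive, where 31.4% of all genes differed and 15.1% did so with a positive sign. At an unadjusted p under 0.05, 29 were positive and 0 negative. The 6 with the smallest adjusted p were OPTN (1.24 ± 0.079, adjusted p = 7.1e-15), CTSB (1.09 ± 0.081), SCARB2 (0.83 ± 0.067), WIPI1 (1.51 ± 0.12), LAMP1 (0.86 ± 0.07) and TPP1 (0.75 ± 0.068, adjusted p = 5.3e-11). On the total-count scale 24 were positive and 2, GLA and GUSB, negative. The method, the depth of the knockdown and the library preparation differ together between these experiments and cannot be told apart.

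For SK-N-SH CRISPRi minus SK-N-AS CRISPRi, 27 of 44 members differed, 23 of them with a positive and 4 with a negative sign. Of all genes 30.7% differed, 16.0% with a positive and 14.7% with a negative sign. The 6 with the smallest adjusted p were OPTN (0.72 ± 0.065, adjusted p = 8.3e-13), HEXA (0.49 ± 0.06), WIPI1 (0.77 ± 0.098), GRN (0.38 ± 0.051), TPP1 (0.36 ± 0.053) and GAA (0.37 ± 0.055, adjusted p = 3.6e-07). The 4 negative ones were TFE3 (-0.25 ± 0.059), CTSL (-0.20 ± 0.064), CTSS (-0.55 ± 0.18) and GLA (-0.24 ± 0.09). The call of CTSL was lost without SK-N-SH knockdown 1 or control 3 (adjusted p = 0.056 and 0.065). That of CTSS was lost without SK-N-SH knockdown 2 or 3 or control 2 or 3 (0.051 to 0.071). That of GLA was lost without SK-N-SH knockdown 1 or 3 or control 1 or 3, or SK-N-AS knockdown 2 or 3 or control 4 (0.056 to 0.12). The difference of CTSB, 0.048 ± 0.044, did not pass (adjusted p = 0.46). On the total-count scale 18 members differed, 13 positive and 5 negative. The cell line, the depth of the knockdown and the number of reads differ together between the CRISPRi experiments and cannot be told apart.

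A wider list of 155 genes of the same pathways was read beside the members. With siRNA 31 of 152 tested fell and 0 rose, with 7 higher at an unadjusted p under 0.05 and 31 falls and 0 rises by DESeq2, and the median log2 fold change was -0.05. The 31 falls were 20.4% of the list, against 6.98% of all genes tested. In SK-N-SH CRISPRi 63 of 148 rose and 20 fell (42.6% and 13.5%, median 0.10), where 27.7% of all genes rose and 28.0% fell. In SK-N-AS CRISPRi 48 of 148 rose and 16 fell (32.4% and 10.8%, median 0.04), where 15.2% of all genes rose and 15.5% fell. The shares of the single lists are given on the same base. The list with the most siRNA falls was that of other hydrolases and activators, where 14 of 29 fell (48.3%). In that list 20 of 29 rose (69%) and 3 fell in SK-N-SH CRISPRi, and 15 of 28 rose (53.6%) and 1 fell in SK-N-AS CRISPRi. SMPD1, the acid sphingomyelinase, had 49.4 ± 2.88 CPM after knockdown and 67.0 ± 1.93 CPM in controls with siRNA (-0.44 ± 0.045, adjusted p = 2.2e-07; SD, n = 5 each). DNASE2, the acid nuclease, fell with siRNA (-0.48 ± 0.061). MANBA, the beta-mannosidase, rose in SK-N-SH CRISPRi (0.64 ± 0.07) and SK-N-AS CRISPRi (0.43 ± 0.039).

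Among 19 other membrane proteins and transporters, 5 of 19 tested fell with siRNA (26.3%), 8 of 18 rose (44.4%) and 3 fell in SK-N-SH CRISPRi, and 7 of 19 rose (36.8%) and 2 fell in SK-N-AS CRISPRi. SLC17A5, the sialic acid exporter, fell with siRNA (-0.70 ± 0.058, adjusted p = 1.1e-08). CD63, a tetraspanin of late endosomes and lysosomes, went against the LAMP genes in both CRISPRi experiments. In SK-N-SH CRISPRi it had 27.8 ± 0.363 CPM after knockdown and 218 ± 12.1 CPM in controls (SD, n = 3 each), a log2 fold change of -2.97 ± 0.052 (adjusted p = 1.4e-33). In SK-N-AS CRISPRi it had 264 ± 2.59 CPM after knockdown and 431 ± 7.31 CPM in controls (SD, n = 4 each), a log2 fold change of -0.70 ± 0.024 (adjusted p = 2.2e-22). Of 13 genes that sort lysosomal enzymes, 4 fell with siRNA (30.8%), 7 rose in SK-N-SH CRISPRi (53.8%), and 6 rose (46.2%) and 1 fell in SK-N-AS CRISPRi. SUMF1, which activates the sulfatases, fell with siRNA (-0.77 ± 0.057) and rose in SK-N-SH CRISPRi (0.52 ± 0.054), and SORT1, a sorting receptor, also rose there (0.55 ± 0.041).

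The other V-ATPase subunits were mixed, with 1 of 16 falling with siRNA (6.25%), 6 of 14 rising (42.9%) and 5 falling (35.7%) in SK-N-SH CRISPRi, and 5 of 14 rising and 5 falling (35.7% each) in SK-N-AS CRISPRi. ATP6AP2 rose in SK-N-SH CRISPRi (0.53 ± 0.04) and ATP6V1B2 fell (-0.47 ± 0.046). Among 28 tested genes of autophagosome formation, 1 fell with siRNA (WIPI2, -0.40 ± 0.041), 6 rose (21.4%) and 1 fell in SK-N-SH CRISPRi, and 4 rose (14.3%) and 3 fell in SK-N-AS CRISPRi. These shares of rises were under those of all genes, 27.7% and 15.2%, so the list did not stand out by its rises. Its shares of falls there, 3.57% and 10.7%, were also under those of all genes, 28.0% and 15.5%. VMP1, a membrane protein of the forming autophagosome, rose in SK-N-SH CRISPRi (0.88 ± 0.043, adjusted p = 6e-20), with 286 ± 17.1 CPM after knockdown and 155 ± 3.18 CPM in controls (SD, n = 3 each). Of 12 other receptors, 3 fell with siRNA (25%), 6 rose (50%) and 1 fell in SK-N-SH CRISPRi, and 3 rose in SK-N-AS CRISPRi (25%). NCOA4, the ferritin receptor, rose in SK-N-AS CRISPRi (0.43 ± 0.027).

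The fusion machinery had 2 of 14 falling with siRNA (14.3%), 5 of 13 rising (38.5%) and 1 falling in SK-N-SH CRISPRi, and 2 of 13 rising (15.4%, near the 15.2% of all genes) and 1 falling in SK-N-AS CRISPRi. RAB7A, the late endosome GTPase, fell with siRNA (-0.23 ± 0.057) and rose in SK-N-SH CRISPRi (0.18 ± 0.039) and SK-N-AS CRISPRi (0.082 ± 0.024). Of 21 tested genes of mTORC1 and TFEB control at the lysosome, 1 fell with siRNA (LAMTOR1, -0.31 ± 0.054). In SK-N-SH CRISPRi 5 rose (23.8%) and 6 fell (28.6%), near the 27.7% and 28.0% of all genes. In SK-N-AS CRISPRi 6 rose (28.6%) and 3 fell (14.3%), against 15.2% and 15.5% of all genes. RRAGD, a Rag GTPase, had 1.29 ± 0.305 CPM after knockdown and 5.29 ± 0.117 CPM in controls in SK-N-SH CRISPRi (-2.03 ± 0.21, adjusted p = 7.6e-11; SD, n = 3 each). It had 16.5 ± 1.01 CPM after knockdown and 9.23 ± 0.637 CPM in controls in SK-N-AS CRISPRi (0.84 ± 0.066, adjusted p = 9.4e-13; SD, n = 4 each), opposite in sign. DEPTOR, an mTOR inhibitor, rose in SK-N-AS CRISPRi (1.28 ± 0.067, adjusted p = 2.9e-17).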

How the data were processed

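RNA was extracted with TRIzol and RNeasy columns, CRISPRi libraries were made with Illumina Stranded mRNA Prep and siRNA libraries after poly-T selection, per the labels' protocols. The submitters' processing notes list bcl2fastq 2.20.0.422 and 2.20, CASAVA, FastQC 0.11.8, STAR 2.6.1d, featureCounts 1.5.1 and GRCh38. No annotation release or counting strand is given in the sources used here. The authors deposited raw counts per gene, 1 table per experiment, and all 24 libraries were used. In each table's annotation, 6 members overlap another coding gene on the same strand (CTSD, HEXA, GLB1, MCOLN1, ATP6V0C and ATG9A) and 25, 26 and 30 members overlap a gene on the opposite strand in the siRNA, SK-N-SH CRISPRi and SK-N-AS CRISPRi tables, so reads could be shared.

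Each experiment was fitted alone in R 4.3.3 with edgeR 4.0.16: filterByExpr (minimum count 10, minimum total 15), TMM scaling, robust quasi-likelihood test, Benjamini-Hochberg adjustment over all genes tested (21018, 15391 and 19277), called at an adjusted p under 0.05. The 2 differences between experiments were tested as interactions over genes in both tables. The script was tested on simulated data. DESeq2 1.42.0, other scalings, no filter, a replicate block and leaving out libraries were alternatives; scaling to total counts and leaving out 3 siRNA libraries together were added after the data were seen. Replicate numbers did not pair the samples, and no 2 libraries were duplicates. Members, lists and tests were chosen with earlier results of these data known. Values per library were given for up to 2 members per role and experiment and up to 6 per difference test, by smallest adjusted p, and up to 2 called genes per wider list and experiment served as the pool for examples. Levels per kilobase used the gene length of the siRNA table.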

Additional observations from a re-analysis of the deposited data

Results flagged for a closer look

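The difference in response between SK-N-SH CRISPRi and SK-N-SH siRNA was called for 28 members, by the interaction test. The 6 with the smallest adjusted p had log2 differences of 1.24 ± 0.079 for OPTN, 1.09 ± 0.081 for CTSB, 0.835 ± 0.067 for SCARB2, 1.51 ± 0.12 for WIPI1, 0.86 ± 0.07 for LAMP1 and 0.75 ± 0.068 for TPP1, each positive. The difference between the CRISPRi experiments, SK-N-SH minus SK-N-AS, was called for 27 members. Its 6 smallest adjusted p belonged to OPTN (0.72 ± 0.065), HEXA (0.49 ± 0.06), WIPI1 (0.77 ± 0.098), GRN (0.38 ± 0.051), TPP1 (0.36 ± 0.053) and GAA (0.37 ± 0.055).

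In 5 of 56 groups of 4 or 5 libraries, 1 library was separated from the others by a gap that was large for the range of its group. Chance gives about 1 in 20 for independent groups, but these groups share libraries. The gap was read against the range, so a small difference in CPM in a tight group also counted. SCARB2 was at 257 CPM (256.5) in siRNA knockdown library 4, below the other 4, and ATP6V1A was at 75.8 CPM in the same library, also below. SQSTM1 was at 135 CPM (135.1) in siRNA knockdown library 1, below the other 4. GABARAPL1 was at 13.6 CPM in siRNA control library 4, above the other 4. LAMP2 was at 86.5 CPM (86.55) in SK-N-AS control library 1, below the other 3.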

How the results depend on the processing

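No member changed direction under any alternative while called, and each count of called members stayed within 1.5 times its value. Leaving out 1 library at a time gave 18 to 22 called members with siRNA, 28 to 31 in SK-N-SH CRISPRi, 25 to 30 in SK-N-AS CRISPRi, and 27 to 29 and 23 to 27 for the differences of SK-N-SH CRISPRi from siRNA and from SK-N-AS CRISPRi. Over all genes the same gave 1406 to 2515, 7776 to 8449 and 5149 to 5900 calls. DESeq2's Wald test called 21, 26 and 31 members in the 3 experiments. Without a filter on low counts 21, 32 and 24 were called, and 28 and 22 for the differences. Total-count scaling gave 19, 27 and 29, and 26 and 18 for the differences; with siRNA it changed all genes from 536 up and 1468 down to 1315 up and 1068 down. Every alternative kept the call of 18 of 21 members with siRNA, 24 of 33 in SK-N-SH CRISPRi and 24 of 30 in SK-N-AS CRISPRi, and of 24 of 28 and 14 of 27 members in the differences. Same-numbered libraries did not deviate together (every correlation under 0.1), and in no experiment did every library correlate best with its own number, so the numbers were not read as pairs; with the replicate number as a block, 20, 32 and 30 members were called, and 28 and 26 for the differences. The highest correlation between a knockdown and a control library was 0.37, for siRNA knockdown library 4 and control library 5, which differ in number. Both were among the siRNA libraries with lower cytosolic ribosomal protein gene expression. With both left out, 21 members fell and 0 rose with siRNA. The SK-N-SH CRISPRi libraries were the shallowest, which limits members under about 10 CPM there, such as CTSS, TFEB and MITF.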
